A study of Mus musculus with 29 samples.

Results

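RNA-seq counts were described for 9 genes picked in earlier work on these data for a large effect of C70 on 1 or more days: Crocc2, Ptprv, Aqp1, Apod, Kif26b, Cdsn, Adhfe1, Ces1a and Atf7ip. All 9 were found by symbol among the 11959 genes tested. The cells were 3T3-L1, an established mouse fibroblast line that becomes white adipocytes in culture. Confluent preadipocytes received 10 µM KDM5-C70 (C70), an inhibitor of KDM5 histone demethylases, or the solvent DMSO (vehicle) from day -2 to day 0. Both arms then received the same differentiation medium from day 0 to day 2, which holds dexamethasone, insulin, isobutylmethylxanthine and a PPARγ agonist, and an adipocyte medium with insulin and dexamethasone afterwards. RNA was taken at days 0, 1, 2 and 7, so that the later time points followed the end of treatment. The 29 samples formed 8 groups, with 4 C70 samples per time point, 4 vehicle samples at day 7 and 3 at the earlier time points. The labels do not say whether replicates were separate cultures, so P values measure only the spread between these samples. A single cell line limits all groups as a model of adipose tissue.

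KDM5 enzymes remove methyl groups from lysine 4 of histone H3, a mark of active promoters, and C70 is a cell-permeable compound that blocks this activity. During adipogenesis, fibroblast-like preadipocytes leave the matrix-rich, growing state and switch on lipid genes under PPARγ and C/EBP factors. The 9 genes share no pathway. Crocc2 is related to the protein of the ciliary rootlet, Ptprv belongs to the receptor-type tyrosine phosphatases, Aqp1 is a water channel, and Apod is a secreted lipocalin that carries small lipids. Kif26b is an unconventional kinesin, Cdsn is an adhesion protein of the outer epidermis, Adhfe1 is a mitochondrial transhydrogenase that makes hydroxyglutarate, Ces1a is a carboxylesterase that cleaves esters, and Atf7ip is a partner of the H3K9 methyltransferase SETDB1.

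The description of the 9 genes as induced by C70 did not hold for all of them. Crocc2, Ptprv, Aqp1 and Apod were higher with C70 at every time point. Kif26b was higher at days 1, 2 and 7. Cdsn was higher at days 0 and 1 and Ces1a at days 1 and 2, and both were lower at day 7. Adhfe1 was lower at days 0 and 2 and slightly higher at day 7, and Atf7ip was lower at day 0 and slightly lower at days 1 and 2. These slight differences were below 0.32 on the log2 scale, the fold threshold used here, although the samples of the arms did not overlap. They are therefore called here the 9 genes picked for large C70 effects.

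The upstream sequence of the genes raised at all 4 time points is shown beside that of Atf7ip, as examples that differ in CpG content. The paper describes the targeted enzymes as acting at promoters and at enhancers, and only promoter windows were examined here. Kif26b, raised at the later time points, is not shown and had more CpG (32) than Atf7ip (20 over its 250 bases). A link between CpG content and the C70 effect was not tested. RefSeq promoter entries on GRCm38.p6 matched 7 of the 9 genes: Crocc2, Aqp1, Apod, Kif26b, Cdsn, Ces1a and Atf7ip. Ptprv and Adhfe1 were not matched. Each window holds the 250 bases before the RefSeq start, written 5′ to 3′ on the strand of the gene, and capitals mark each CpG. For Atf7ip the first 201 bases are printed, up to its first annotated exon there.
Crocc2, chr1:93168173-93168422, plus strand: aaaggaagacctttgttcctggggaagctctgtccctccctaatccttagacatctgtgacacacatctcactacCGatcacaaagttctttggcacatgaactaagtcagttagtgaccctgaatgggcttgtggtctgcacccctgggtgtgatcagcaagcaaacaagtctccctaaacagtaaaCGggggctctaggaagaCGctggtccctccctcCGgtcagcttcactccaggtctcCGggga
Aqp1, chr6:55336049-55336298, plus strand: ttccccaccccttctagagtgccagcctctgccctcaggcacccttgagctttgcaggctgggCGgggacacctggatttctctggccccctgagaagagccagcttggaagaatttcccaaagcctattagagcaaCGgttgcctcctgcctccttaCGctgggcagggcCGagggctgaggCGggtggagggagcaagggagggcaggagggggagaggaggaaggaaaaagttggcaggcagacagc
Apod, chr16:31314809-31315058, minus strand: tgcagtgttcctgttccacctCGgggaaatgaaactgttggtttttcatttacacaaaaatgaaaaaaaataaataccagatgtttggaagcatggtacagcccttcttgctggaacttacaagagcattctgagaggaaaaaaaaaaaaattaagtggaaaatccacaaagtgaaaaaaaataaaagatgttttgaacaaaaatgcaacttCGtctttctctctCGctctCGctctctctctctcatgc
Atf7ip, chr6:136518601-136518801, plus strand: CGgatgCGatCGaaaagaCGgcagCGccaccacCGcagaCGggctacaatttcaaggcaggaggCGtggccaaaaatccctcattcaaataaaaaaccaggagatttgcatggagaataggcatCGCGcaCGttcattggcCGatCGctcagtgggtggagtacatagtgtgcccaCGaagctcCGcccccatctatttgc

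The Crocc2 window held 5 CpG, the Aqp1 window 5 and the Apod window 4. Over the 32851 promoter entries of RefSeq the median was 6, with quartiles of 2 and 16, so these windows lay between the lower quartile and the median. Ces1a had 2 CpG, and the 2 entries of Cdsn had 8 and 3. The Cdsn entry with 8 starts 9027 bases from the nearest GENCODE start, and the other coincides with one. Kif26b had 32 CpG and lay at percentile 95.7 of all entries, and Atf7ip had 20 over its 250 bases and lay at percentile 82.9. The RefSeq start of Crocc2 lies 302 bases, and that of Aqp1 133 bases, from the nearest GENCODE start, whereas those of Apod, Kif26b and Ces1a coincide with one. That of Atf7ip lies 5 bases away, inside a locus whose first GENCODE start is further upstream.

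Both strands of the windows were searched for short motifs, none of which contains another. CCAAT, the CCAAT box, was found in the windows of Kif26b, Ces1a and Atf7ip and in 33.8% of all entries. GGGCGG, the GC box, was found in those of Kif26b, Aqp1 and Atf7ip and in 32.7% of all. The cAMP response element TGACGTCA (1.55% of all entries), the letters AGAACA of glucocorticoid receptor sites (16.1%), the C/EBP palindrome TTGCGCAA (0.164%), the E-box CACGTG (6.02%) and the TATA box TATAAA (12.4%) were in none of the 8 windows of these genes. Those letters are absent from these windows only.

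**Figure D1:**
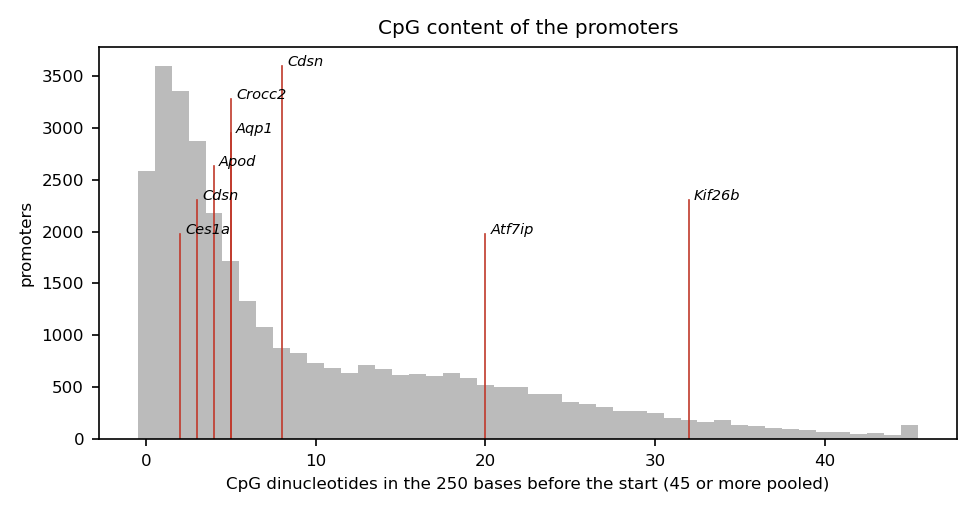
Number of RefSeq promoter entries (vertical axis) by CpG count in the 250 bases before the start (horizontal axis), with each matched gene as a labelled line whose height has no meaning. Crocc2, Aqp1, Apod and Ces1a lie at 5 or fewer CpG, Cdsn has 2 entries at 3 and 8, and Atf7ip and Kif26b lie at 20 and 32.

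Total counts per sample ranged from 16320275 to 24037170. Levels are given as CPM, the count of a gene relative to the total of its library after scaling of libraries by the trimmed mean of M values. A gene was a DEG in a comparison where edgeR's quasi-likelihood test gave an adjusted P value (Benjamini-Hochberg, over all 11959 genes) under 0.05 and the log2 fold change was over 0.32 in either direction. The cells are labelled adipocyte on all days, but at day 0 Adipoq, an adipocyte hormone, averaged 0.283 CPM in vehicle and Dlk1, a preadipocyte factor, 2570. By day 7 Adipoq averaged 1340 CPM and Dlk1 202. Summed CPM of 10 adipocyte markers ran from 1390 to 1520 in vehicle and from 1610 to 1660 with C70 at day 0. Most of these sums was Lpl, which averaged 1240 and 1400 CPM (log2 fold change 0.18, below the fold threshold). In the test 2 of the 10 were higher and 2 lower (5.89% and 3.09% of all genes). At day 1 the order of the sums was the other way, with 5750 to 6110 in vehicle and 3850 to 3940 with C70. Of the 10, 8 were then lower (7.8% of all genes). The sums ran from 25100 to 25900 in vehicle and from 14700 to 16200 with C70 at day 2, and 8 of the 10 were lower in the test (13.6% of all genes). At day 7 none of the 10 was lower and 2 were higher (4.85% and 14.3% of all genes), Adipoq (0.35) and Cd36 (0.33), with sums of 26200 to 30400 in vehicle and 28600 to 31400 with C70. For the 11 of 12 preadipocyte and fibroblast markers analysed, the sums of the arms overlapped at day 0 (40400 to 41400 in vehicle and 39600 to 43000 with C70) and at day 1 (14900 to 16300 and 15800 to 17200). Col1a2 and Col1a1 made up most of the vehicle sums at day 0, with means of 17400 and 10700 CPM. In the test 3 were higher and none lower at day 0 (5.89% and 3.09% of all genes), and 5 were higher and 1, Col1a1, lower at day 1 (13.6% and 7.8%). The sums at day 2 were 5970 to 6170 in vehicle and 9250 to 10000 with C70, and 10 of the 11 were higher (16.9% of all genes). At day 7 all 11 were higher (14.3% of all genes), with sums of 4010 to 5330 in vehicle and 8280 to 9730 with C70. In bulk samples fewer cells of a type and less RNA per cell cannot be told apart, and the part of these differences in the values below was not tested. Kdm5a, Kdm5b and Kdm5c, the 3 targeted enzymes analysed here, had log2 fold changes between -0.10 and 0.19 over the 4 days. Kdm5b at day 1 had the largest of these (adjusted P = 0.00582 by edgeR, below the fold threshold).

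Because the 9 genes were selected on the contrast of C70 with vehicle, their effects are a description and carry no P value. At day 0, 5 were past both DEG thresholds with higher expression and 2 with lower, against 5.89% and 3.09% of all genes. At day 1 the counts were 7 higher and 0 lower (13.6% and 7.8% of all genes), with Atf7ip lower but under the fold threshold. Day 2 had 6 higher and 1 lower (16.9% and 13.6% of all genes). Day 7 had 5 higher and 2 lower (14.3% and 4.85% of all genes). Crocc2, Ptprv, Aqp1 and Apod were past the thresholds in the same direction on all 4 days, as were 2.06% of all genes. The count higher at day 7 depended on single libraries and on the fit. It was 4 without C70 replicate 3 or 4 of that day, 6 without vehicle replicate 1 of that day, 4 in a separate fit of the day and 3 after quantile normalization. The number of genes higher on all 4 days fell with it, to 3 without C70 replicate 3 (Ptprv lost) or 4 (Crocc2 lost) of day 7 and to 3 in separate fits of each day (Ptprv lost). After quantile normalization, or with the replicate block in separate fits, it was 2, Aqp1 and Apod. C70 and vehicle samples did not overlap for 7, 8, 8 and 8 of the 9 genes at days 0, 1, 2 and 7, against 34%, 48.2%, 57.2% and 29.3% of all genes. Nothing is read from these counts, since the choice of the genes fixed them.

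**Figure D2:**
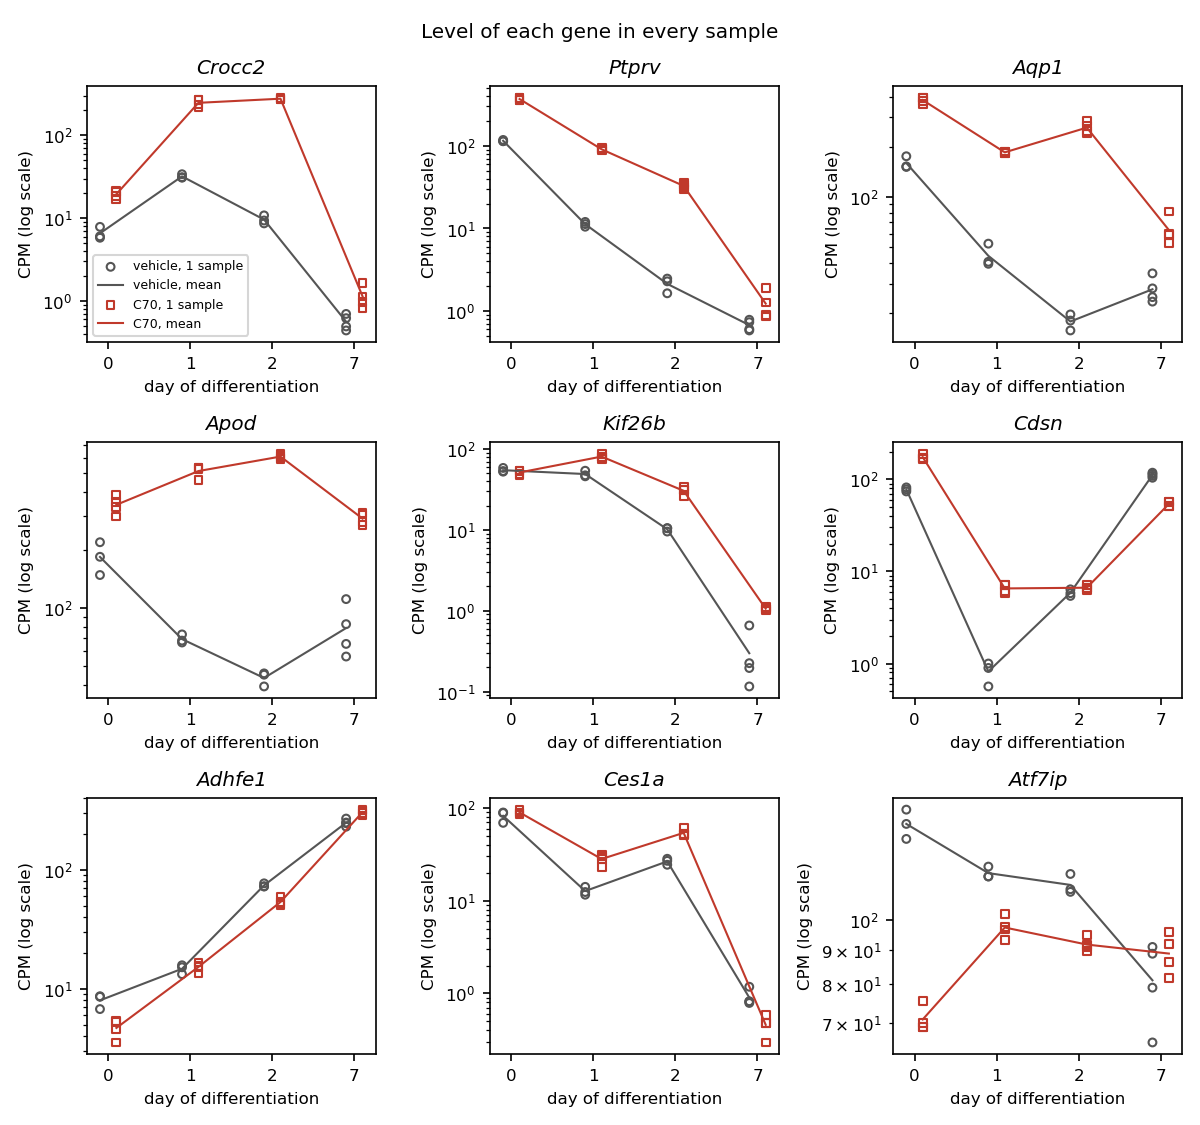
CPM on a log axis (each panel has its own range) against day for the 9 genes, with circles for vehicle samples, squares for C70 samples and lines through group means. The days are evenly spaced on the axis. C70 samples lie above vehicle samples at every time point for Crocc2, Ptprv, Aqp1 and Apod, and below them at day 7 for Cdsn and Ces1a and at day 0 for Adhfe1 and Atf7ip.

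Crocc2 lies at chr1:93168725-93231072 on the plus strand of GRCm38. It had the largest effect of all 11959 genes at day 2. In vehicle it was low at day 0 and had a brief peak at day 1. With C70 the level at day 1 was higher and was held at day 2. The vehicle samples had 5.80, 6.03 and 7.85 CPM at day 0, and the C70 samples 17.2, 21.1, 20.9 and 18.7. At day 1 these were 30.8, 33.9 and 31.2 in vehicle and 236, 217, 266 and 268 with C70. The groups were far apart on both days, and the lowest C70 sample at day 1 was above every vehicle sample of the series. At day 2 vehicle had fallen back to 10.8, 9.37 and 8.65, while C70 samples held 271, 285, 273 and 278. By day 7 the gene was near the floor in both arms, with 0.698, 0.620, 0.441 and 0.493 in vehicle and 0.965, 0.828, 1.13 and 1.64 with C70. These last values rest on 41 and 82 counts summed over each group of 4. The log2 fold changes were 1.57 (standard error 0.109), 2.95 (0.0824), 4.85 (0.0957) and 1.04 (0.308) at days 0, 1, 2 and 7. After quantile normalization the value at day 7 was 0.32. In level per kilobase of exon, Crocc2 moved at day 2 from percentile 15.2 of all genes in vehicle (1.35 CPM per kb) to percentile 90.7 with C70 (38.8 CPM per kb).

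The courses of Crocc2 in the arms already differed by day 1 and differed more by day 2. With C70 it stood at 1270% of its day 0 level at day 1 and at 1420% at day 2, whereas in vehicle it stood at 487% and 146%. In the order of the 8 groups, C70 at day 2 and C70 at day 1 (277 ± 5.94 and 247 ± 24.5, SD, n = 4) came first and their samples did not overlap. Vehicle at day 1, C70 at day 0, vehicle at day 2, vehicle at day 0, C70 at day 7 and vehicle at day 7 followed, and no group overlapped its neighbour in this order.

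Ptprv lies at chr1:135108497-135132594 on the minus strand and is annotated as a processed transcript, not as protein coding. It was highest at day 0 and fell in both arms, less with C70 up to day 2. At day 0 vehicle samples had 114, 114 and 118 CPM and C70 samples 358, 384, 377 and 359. At day 1 vehicle samples had 11.3, 10.5 and 12 and C70 samples 87.8, 93.8, 90.8 and 91.5. Both arms fell by day 1, and each C70 sample at day 1 was below each vehicle sample at day 0. At day 2 the values were 2.47, 2.29 and 1.64 in vehicle and 35.5, 31.9, 29.8 and 33.9 with C70. At day 7 both arms were low, at 0.582, 0.733, 0.784 and 0.603 in vehicle and 0.858, 0.887, 1.90 and 1.27 with C70, on 50 and 87 summed counts. All C70 samples were above all vehicle samples of their day. The log2 fold changes were 1.68 (standard error 0.0617), 3.01 (0.0768), 3.92 (0.106) and 0.84 (0.240). The last of these was 0.25 after quantile normalization. At day 2 vehicle kept 1.85% of its day 0 level, and C70 8.87%. An antisense gene, Gm10535, overlaps Ptprv, and whether the counting used strand is not stated.

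Aqp1, at chr6:55336432-55348555 on the plus strand, kept a C70 effect while its vehicle level fell and partly returned. Vehicle samples had 152, 175 and 151 CPM at day 0, and C70 samples 391, 362, 377 and 394. At day 1 vehicle samples had 52.2, 39.5 and 40.6, and C70 samples 186, 183, 183 and 187. Without vehicle replicate 1, the highest of its group, the log2 fold change at day 1 was 2.20 instead of 2.06. Day 2 gave 18, 15.7 and 19.6 in vehicle and 285, 240, 249 and 267 with C70. At day 7 the values were 28.1, 23.4, 24.9 and 34.6 in vehicle, and 58.8, 59.4, 52.4 and 81.5 with C70. No C70 sample overlapped a vehicle sample of its day. With C70 every day 2 sample was above every day 1 sample, whereas in vehicle every day 2 sample was below every day 1 sample. Log2 fold changes were 1.26 (standard error 0.109), 2.06 (0.117), 3.87 (0.131) and 1.19 (0.113).

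Apod, at chr16:31296192-31314808 on the minus strand, had the largest day 7 effect of the 4 genes raised throughout. Its level rose after induction with C70 and fell in vehicle. At day 0 vehicle samples had 219, 148 and 184 CPM and C70 samples 384, 355, 298 and 333. At day 1 the values were 66.1, 67.6 and 72.8 in vehicle and 525, 460, 533 and 532 with C70. At both times the lowest C70 sample was above the highest vehicle sample. At day 2 they were 45.7, 39.1 and 45 in vehicle and 593, 615, 598 and 631 with C70. At day 7 vehicle samples had 111, 55.9, 65.0 and 82.3, and C70 samples 305, 268, 278 and 311. The C70 samples of day 7 were thus above every vehicle sample of the series. Log2 fold changes were 0.90 (standard error 0.135), 2.90 (0.148), 3.82 (0.156) and 1.89 (0.129). C70 samples stood at 150%, 178% and 84.8% of their day 0 level at days 1, 2 and 7, and vehicle samples at 37.5%, 23.6% and 42.8%. Per kilobase of exon, Apod with C70 at day 2 (236 CPM per kb) lay at percentile 99.2 of all genes, and Aqp1 (99.0 CPM per kb) at percentile 97.1.

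**Figure D3:**
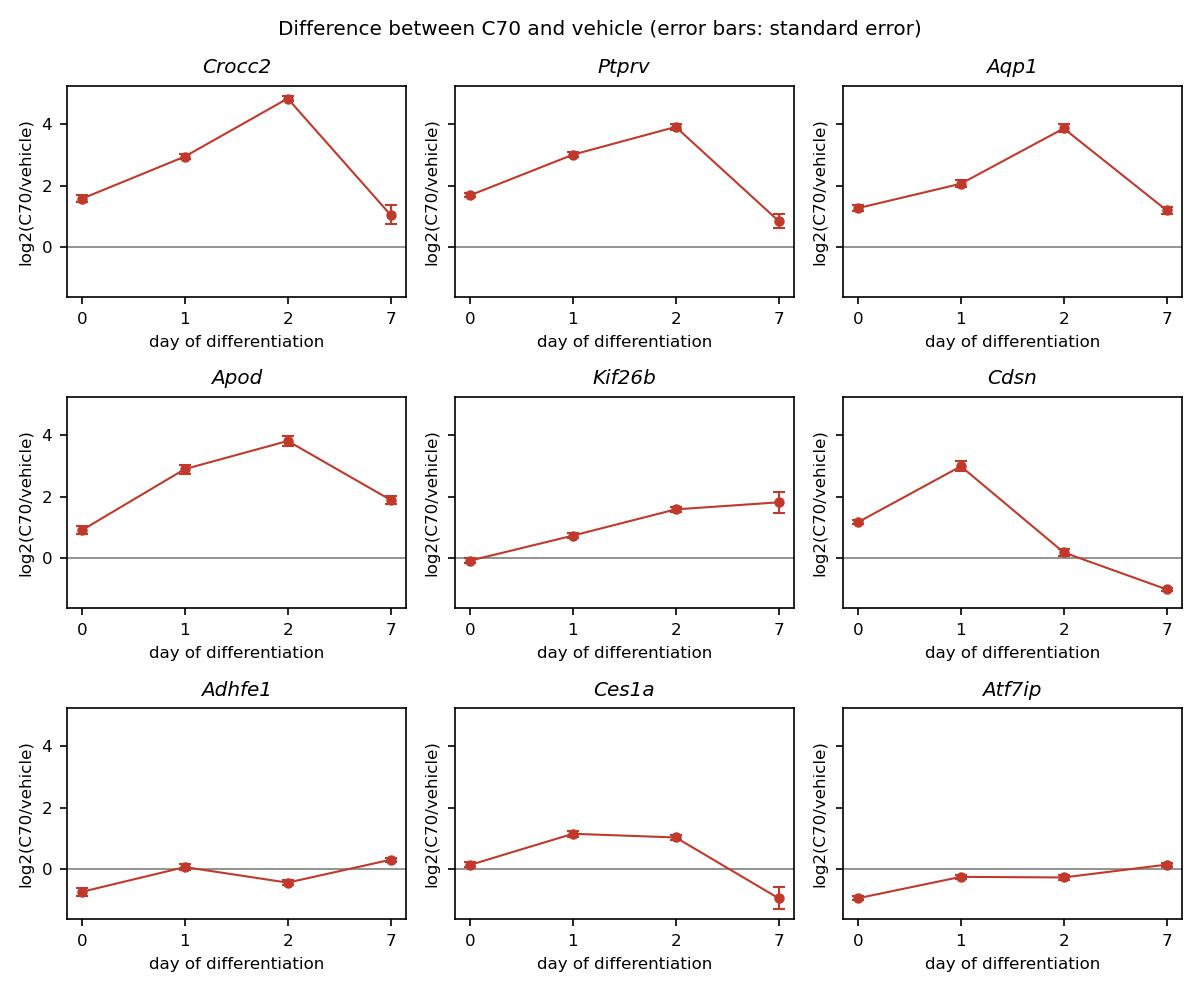
Log2 fold change of C70 over vehicle (vertical axis, shared) by day (evenly spaced), with standard errors from the fit; points above 0 are higher with C70. Crocc2, Ptprv, Aqp1 and Apod peak at day 2, at 4.85, 3.92, 3.87 and 3.82, and Cdsn peaks at day 1 and is at -1.04 by day 7.

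Kif26b, at chr1:178529125-178939200 on the plus strand, showed no separation of the arms at day 0. Its level with C70 was 157% of that of day 0 at day 1 and 59.4% at day 2, against 89.5% and 18.6% in vehicle. At day 0 vehicle samples had 52.5, 53.4 and 58.4 CPM and C70 samples 47.7, 54.2, 53.7 and 49.6, which overlapped. At day 1 vehicle samples had 53.9, 46.0 and 47.3 and C70 samples 79.3, 87.7, 75.7 and 80.0. Day 2 gave 10.5, 9.54 and 10.5 in vehicle and 33.6, 26.5, 30.8 and 30.9 with C70. The arms were separate from day 1 on. At day 7 vehicle samples had 0.116, 0.225, 0.196 and 0.658, and C70 samples 1.07, 1.12, 1.01 and 1.05, on 22 and 76 summed counts. The log2 fold changes were -0.10 (standard error 0.0747), 0.72 (0.0748), 1.58 (0.0937) and 1.81 (0.343). The day 7 value was 2.52 without vehicle replicate 4, the highest of its group, and 0.69 after quantile normalization. Its antisense gene Gm16564 overlaps the locus.

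Cdsn and Ces1a changed direction between the early days and day 7. Cdsn lies at chr17:35552128-35557180 on the plus strand. Its vehicle level nearly vanished at day 1 and returned by day 7. At day 0 vehicle samples had 77.8, 81.7 and 73.9 CPM and C70 samples 171, 190, 169 and 167. At day 1 they had 1.00, 0.564 and 0.895 in vehicle and 7.14, 6.10, 5.80 and 7.11 with C70. C70 samples were above all vehicle samples on both days, although the day 1 level with C70 was 3.75% of that at day 0. At day 2 the groups overlapped, with 5.80, 6.39 and 5.42 in vehicle and 6.67, 6.64, 7.06 and 6.25 with C70. At day 7 vehicle samples had 104, 114, 118 and 109, and C70 samples 50.8, 57.4, 51.3 and 56.5. Every C70 sample was then below every vehicle sample. Log2 fold changes were 1.16 (standard error 0.0599), 2.99 (0.160), 0.17 (0.105) and -1.04 (0.0568). The day 1 value was 2.53 after quantile normalization and 2.78 without vehicle replicate 2, the lowest of its group. Of 10 keratinocyte markers, 2 were analysed, with sums of at most 11.6 CPM in any sample. Both were lower with C70 at day 7 (4.85% of all genes), Krt10 with -0.5 and Trp63 with -0.36 (adjusted P = 0.0226 and 0.0353 by edgeR).

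Ces1a lies at chr8:93020214-93048192 on the minus strand, within a cluster of related esterase genes. Whether reads were shared within the cluster was not examined, so the counts of Ces1a are uncertain. At day 0 vehicle samples had 89.3, 69.1 and 88.3 CPM and C70 samples 84.8, 88.4, 95.9 and 89.1, which overlapped. The values at day 1 were 14.1, 11.6 and 12.4 in vehicle and 23, 29.9, 31.5 and 28.2 with C70. Those at day 2 were 26.9, 28.3 and 24.4 in vehicle and 60.5, 50.8, 52.3 and 52.0 with C70. On these days all C70 samples were above all vehicle samples, and both arms had a dip at day 1. At day 7 both were low, with 0.815, 0.789, 1.18 and 0.822 in vehicle and 0.482, 0.296, 0.476 and 0.580 with C70, on 67 and 33 summed counts. The log2 fold changes were 0.12 (standard error 0.0820), 1.14 (0.104), 1.02 (0.0917) and -0.97 (0.369). The number of the 9 genes past the thresholds with lower expression at day 7 was 1 instead of 2 without vehicle replicate 1 or 3, or without C70 replicate 1, 2 or 3, of that day. Gm45463, on the opposite strand, overlaps Ces1a.

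Adhfe1, at chr1:9547948-9580673 on the plus strand, had higher means at each later day than at day 0 in both arms. C70 samples had 3.55, 5.34, 5.31 and 4.60 CPM at day 0, below the vehicle samples at 6.77, 8.68 and 8.59. At day 1 the arms overlapped, with 15.8, 15.2 and 13.3 in vehicle and 16.7, 13.5, 15.3 and 15.7 with C70. At day 2 vehicle samples had 72.5, 72.9 and 77.1 and C70 samples 51.5, 58.9, 53.5 and 51.1, again lower. Day 7 showed the other order, at 270, 247, 250 and 231 in vehicle and 299, 321, 316 and 287 with C70. Log2 fold changes were -0.76 (standard error 0.122), 0.05 (0.0940), -0.46 (0.0732) and 0.29 (0.0627), the last below the fold threshold. Adhfe1 overlaps 2610203C22Rik on the opposite strand.

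Atf7ip, at chr6:136506167-136610862 on the plus strand, was lower with C70 at days 0, 1 and 2 and overlapped vehicle at day 7. At day 0 vehicle samples had 132, 139 and 146 CPM and C70 samples 69.1, 75.5, 70 and 69. At day 1 vehicle samples had 120, 116 and 116 and C70 samples 102, 97.5, 93.1 and 96.6. At day 2 they were 110, 117 and 111 in vehicle and 89.7, 91.5, 94.8 and 91.0 with C70. The arms were separate on these days, with a smaller gap after day 0. At day 7 the values overlapped, at 65.5, 91.0, 88.9 and 79.1 in vehicle and 86.4, 81.7, 95.8 and 91.9 with C70. Log2 fold changes were -0.97 (standard error 0.0688), -0.27 (0.0688), -0.29 (0.0691) and 0.13 (0.0656). The day 0 change was number 11 of all genes counted from the largest fall, and only this day was past the fold threshold. Gm44140 overlaps the locus on the opposite strand.

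**Figure D4:**
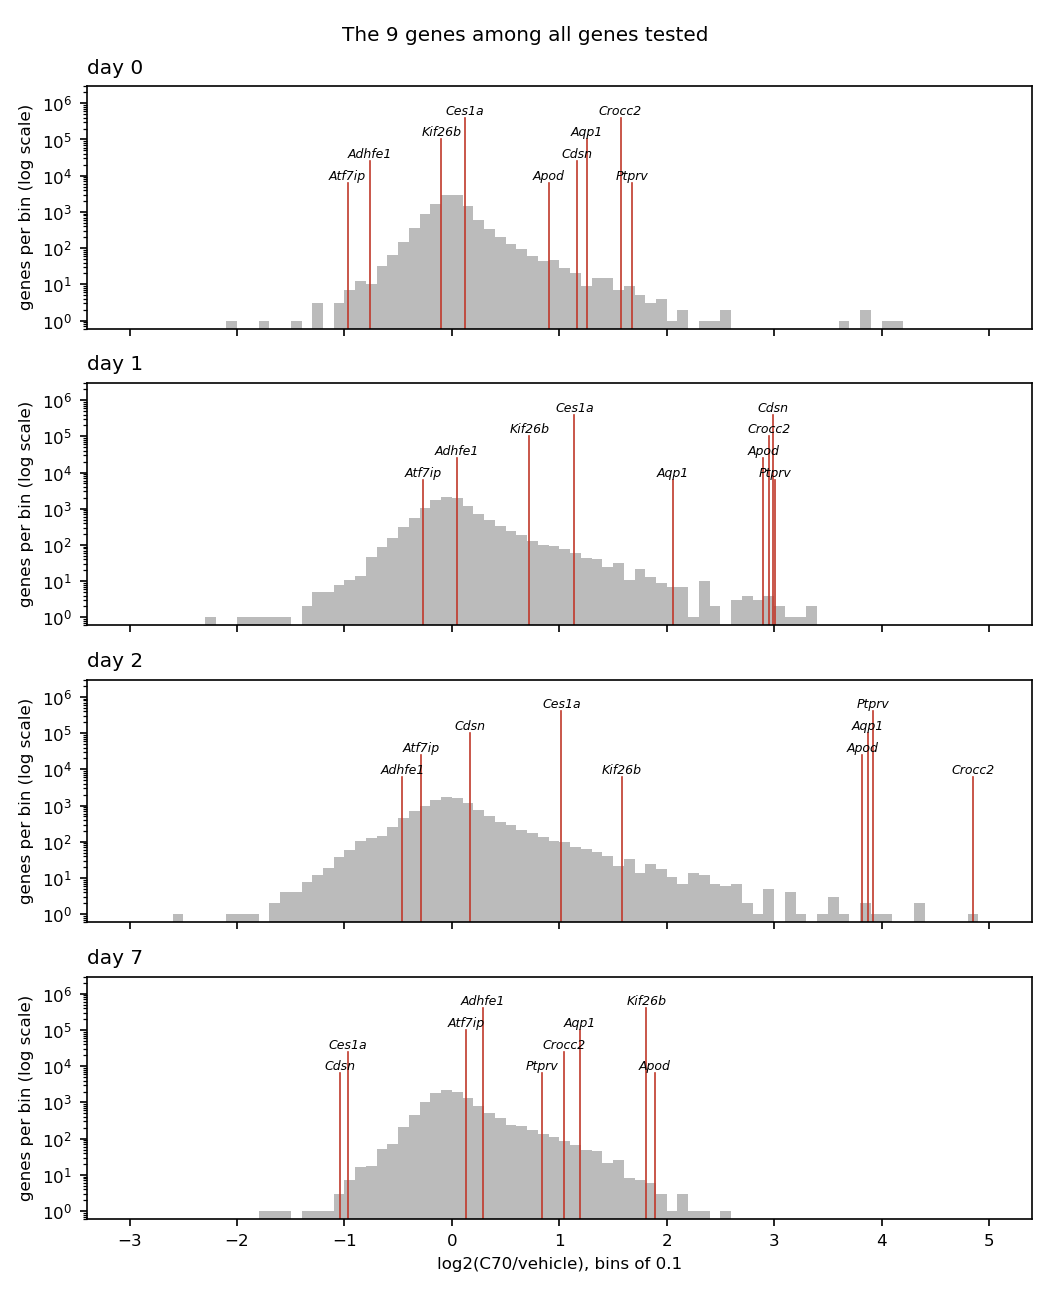
Histograms of log2 fold change of C70 over vehicle for all 11959 genes in bins of 0.1, by day (gene number on a log axis), with the 9 genes as labelled lines whose height has no meaning. Crocc2 stands at the far right at day 2 with 4.85, and Atf7ip and Adhfe1 lie left of the centre at day 0 with -0.97 and -0.76.

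The course of the 9 genes in vehicle is given as a description without P values, because the vehicle samples of each day also entered the choice of the genes, and a low vehicle level on a day favours a large C70 effect. At day 1, 2 were past the thresholds above day 0 and 5 below it, as were 26.2% and 27.9% of all genes. By day 2, 2 were higher and 6 lower than at day 0 (33.4% and 32.4% of all genes). By day 7, 2 were higher and 7 lower (36.7% and 36.7% of all genes).

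Crocc2 was higher in vehicle at day 1, with a log2 fold change over day 0 of 2.29 ± 0.109 (standard error). At day 2 it was still higher, by 0.56 ± 0.125. At day 7 it was lower, with -3.54 ± 0.212 (-3.65 to -2.21 over the processing alternatives described below). For Ptprv the log2 fold changes over day 0 were -3.36, -5.74 and -7.4 (-7.48 to -6.29 over the alternatives) on the 3 later days. Those of Aqp1 were -1.85, -3.17 and -2.52. The lowest vehicle level of Aqp1 was therefore at day 2. Apod had -1.42, -2.09 and -1.23, also with its lowest level at day 2. Kif26b had -0.16, -2.43 and -7.49 (-8.22 to -5.77 over the alternatives) on the same days. For Crocc2, Ptprv, Kif26b, Ces1a and Atf7ip the day 7 level was the lowest of the 4 days.

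Cdsn had -6.55 and -3.72 on the first 2 of these days and was 0.52 above day 0 by day 7. Ces1a had -2.69, -1.63 and -6.49 (-6.66 to -5.59 over the alternatives). Adhfe1 was 0.89, 3.22 and 4.97 above day 0. It was thus higher than at day 0 on all 3 later days, where Crocc2 was so at days 1 and 2 and Cdsn at day 7. Atf7ip had -0.25 and -0.31 at days 1 and 2, under the fold threshold, and -0.78 by day 7. With C70 its level was 137%, 129% and 125% of the day 0 level at days 1, 2 and 7. That day 0 level was itself low, with a mean of 70.9 CPM against 139 in vehicle. The C70 means stayed below vehicle at day 1 (97.3 against 117 CPM) and day 2 (91.7 against 112).

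Relatives of the 9 genes were examined in 9 lists of families and partners, with 96 genes that are not among the 9. By edgeR's test, 4 rose and 6 fell with C70 at day 0, where 5.89% and 3.09% of all genes did, and 18 rose and 14 fell at day 1 (13.6% and 7.8% of all genes). Then 14 rose and 27 fell at day 2 (16.9% and 13.6% of all genes), and 13 rose and 4 fell at day 7 (14.3% and 4.85%). Whether any list differed from all genes was not tested. Median log2 fold changes of the 96 were -0.01, -0.04, -0.04 and 0.04, near the medians of all genes.

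Lipocalins other than Apod were higher at day 1 for 6 of the 7 analysed, with a list median of 1.10, where 13.6% of all genes were higher. The other gene, Orm2, was lower, with -0.39 (adjusted P = 0.0221). Among the 6, Rbp4 and Ambp had a wide spread with C70. Rbp4 averaged 3.29 ± 0.393 CPM in vehicle and 7.02 ± 2.0 (SD) with C70, and Ambp 2.01 ± 0.342 and 3.77 ± 1.72. Lcn2, which binds bacterial siderophores, averaged 80.1 ± 3.15 CPM in the 3 vehicle samples of day 1 and rose to 233 ± 9.55 (SD) in the 4 C70 samples (log2 fold change 1.54, adjusted P = 3.29e-15 by edgeR). Orm1, an acute phase protein, rose at day 2 from 17 ± 0.702 to 42.9 ± 0.851 CPM (1.33, adjusted P = 1.99e-10). By day 7, 1 of the 7 was higher, Lcn2 with 0.42, and 14.3% of all genes were higher. Orm1 to Orm3 are close paralogs, and their counts are uncertain.

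Receptor-type phosphatases other than Ptprv gave 2 of 6 higher at day 1 (13.6% of all genes), and 3 higher and 1 lower at day 2 (16.9% and 13.6% of all genes). The lower gene was Ptprm, with -0.39 (adjusted P = 0.000417). Ptprn, a protein of secretory granules, rose at day 1 from 10.6 ± 0.845 to 31.1 ± 1.48 CPM (SD, 3 and 4 samples), a log2 difference of 1.55 (adjusted P = 5.03e-16 by edgeR). Ptprj rose from 2.23 ± 0.363 to 3.61 ± 0.261 CPM (0.69, adjusted P = 0.0221). Ptprn was higher at days 1, 2 and 7, as Ptprv was. The 2 genes differed at day 0, when Ptprn had 0.17 (adjusted P = 0.0938 by edgeR) and Ptprv 1.68.

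Only Aqp11 was analysed beside Aqp1 among the aquaporins. It was lower with C70 at day 0 (log2 fold change -0.55, on means of 2.06 and 1.42 CPM) and at day 2 (-0.36). At day 1 it had -0.05 (adjusted P = 0.804 by edgeR). It rose by 0.73 at day 7, from 10.7 ± 0.661 to 17.7 ± 0.502 CPM (SD, 4 samples each, adjusted P = 2.01e-07 by edgeR).

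Of 34 kinesins and kinesin-binding proteins beside Kif26b, 16 fell and 3 rose at day 2, when 13.6% of all genes fell and 16.9% rose. Most kinesins drive transport or mitosis. Kif5c, a heavy chain of conventional kinesin, was among those that rose, from 3.22 ± 0.217 to 10.0 ± 0.937 CPM (SD, 3 and 4 samples; 1.63, adjusted P = 1.28e-11 by edgeR). Kif21b rose from 1.36 ± 0.0649 to 3.73 ± 0.125 CPM (1.45, adjusted P = 5.34e-06). Kif26b, at 1.58, lay between these values. At day 7 Kif21b was lower instead, with -0.85 (adjusted P = 0.000901), where Kif5c had 1.10 and Kif26b 1.81.

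Of 9 rootlet and centrosome linker genes beside Crocc2, 1 rose and 1 fell at day 2, with a list median of 0.02, where 16.9% of all genes rose and 13.6% fell. Ninl, a ninein-like centrosome protein, went from 10.4 ± 1.86 to 17.8 ± 0.625 CPM (0.77, adjusted P = 1.62e-08 by edgeR), and Nek2, a centrosomal kinase of dividing cells, fell by 0.80 from 18.7 ± 0.784 to 10.7 ± 1.44 (adjusted P = 7.67e-08).

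Desmosome genes beside Cdsn numbered 3. Jup, which encodes plakoglobin, rose at day 1 from 10.5 ± 0.369 to 20.6 ± 2.15 CPM (0.98, adjusted P = 3.98e-11 by edgeR). Pkp2, a plakophilin, fell by 0.93 at day 2, from 8.83 ± 0.663 to 4.65 ± 0.285 CPM (adjusted P = 1.07e-07).

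Of 13 genes of hydroxyglutarate metabolism other than Adhfe1, 7 fell and 2 rose at day 2, with a median of -0.33, when 13.6% of all genes fell and 16.9% rose. Idh3a, a subunit of the NAD-dependent isocitrate dehydrogenase, fell by 0.86 at day 1 from 240.0 ± 8.41 to 132 ± 1.71 CPM (adjusted P = 7.5e-16 by edgeR). Idh2, the mitochondrial NADP-dependent enzyme, rose at day 2 from 190.0 ± 0.470 to 305 ± 11.8 (0.69, adjusted P = 1.44e-10).

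Carboxylesterases other than Ces1a numbered 3. Ces2g rose at day 7 from 3.31 ± 0.473 to 9.12 ± 1.27 CPM (1.46, adjusted P = 1.8e-09 by edgeR), a day at which Ces1a was lower. Ces1c rose at day 1 from 1.27 ± 0.172 to 2.71 ± 1.11 CPM (1.09, adjusted P = 0.00803), and had -0.07 at day 2 where Ces1a had 1.02. Whether any of these genes shared reads with Ces1a was not examined.

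Among 20 partners and other factors of SETDB1 and H3K9 silencing, 1 fell at day 0 (3.09% of all genes) and 1 at day 1 (7.8%), and 1 rose at day 7 (14.3%). Suv39h2, an H3K9 methyltransferase, fell by 0.59 at day 1 from 3.74 ± 1.20 to 2.48 ± 0.0697 CPM (adjusted P = 0.0120 by edgeR). Atf7, the transcription factor for which Atf7ip is named, rose at day 7 from 104 ± 13.2 to 132 ± 4.09 (0.34, adjusted P = 1.45e-05).

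**Figure D5:**
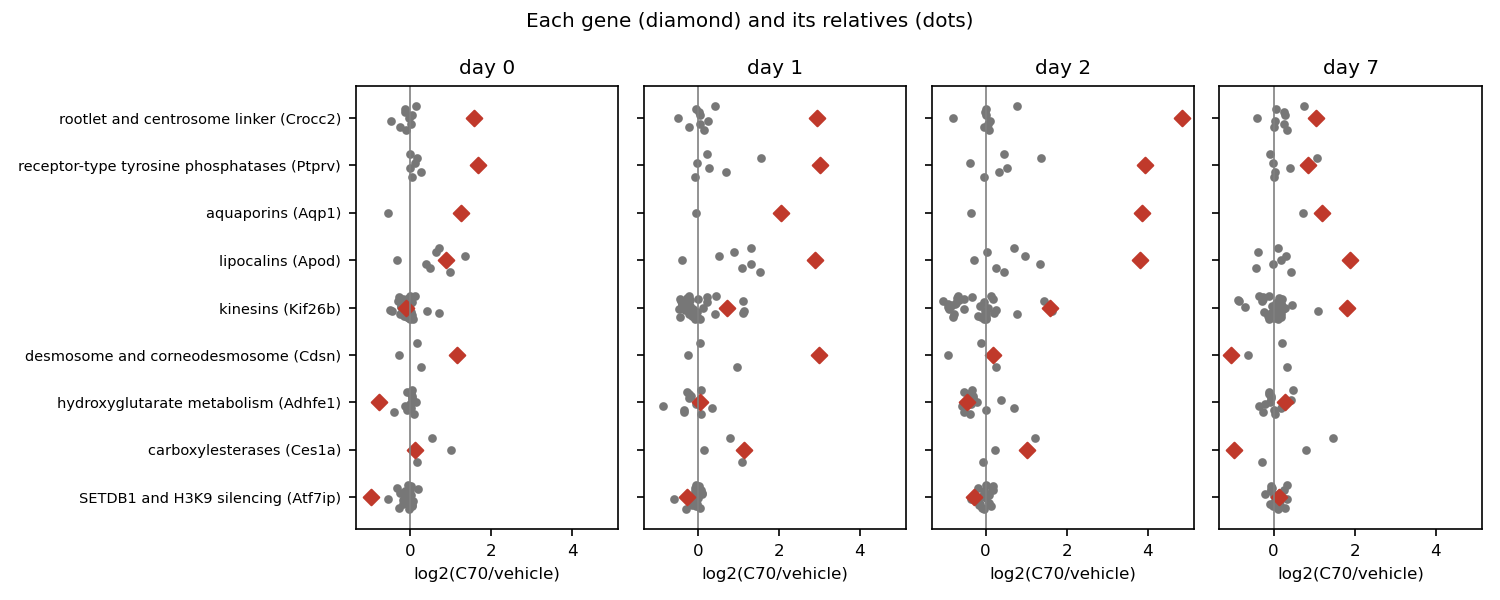
Log2 fold change of C70 over vehicle (horizontal axis, shared by the panels) at days 0, 1, 2 and 7 for each of the 9 genes (diamond) and the other genes of its list (dots, spread vertically only to separate them). At day 2 the diamonds of Crocc2, Ptprv, Aqp1 and Apod lie right of all their relatives, and those of Adhfe1 and Atf7ip lie within theirs.

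The nearest analysed genes on each side of the 9, 2 per side and 36 in all, were tested in the same way. With C70, 2 rose and 1 fell at day 0 (5.89% and 3.09% of all genes), and 3 rose and 3 fell at day 1 (13.6% and 7.8%). Later, 4 rose and 5 fell at day 2 (16.9% and 13.6%), and 5 rose and 3 fell at day 7 (14.3% and 4.85%). These counts are not called particular to the neighbours. The number past the thresholds was 5 at day 0 without vehicle replicate 3 of that day and 5 at day 7 without vehicle replicate 1 of that day. Sned1, a matrix protein gene on the same strand, starts 4.8 kb after the end of Crocc2. It was higher with C70 at day 2, with 2860 ± 180 and 4210 ± 181 CPM (SD, 3 and 4 samples), a log2 difference of 0.56 (adjusted P = 3.25e-07 by edgeR). At day 7 it rose from 394 ± 32.5 to 1040 ± 99.4 (1.40, adjusted P = 1.5e-15). Its effect was thus larger at day 7, and that of Crocc2 at day 2. In vehicle both had their highest mean at day 1, at 6580 CPM for Sned1 and 31.9 for Crocc2.

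Capn10, a calpain protease 220.8 kb before Crocc2, was lower, with -0.54 at day 1 and -0.47 at day 2 (adjusted P = 7.51e-07 and 1.84e-06 by edgeR). Adcyap1r1, the PACAP receptor 103.4 kb after Aqp1, rose at day 0 from 2.58 ± 0.265 to 5.5 ± 0.467 CPM (1.10, adjusted P = 1.73e-08) and fell by 1.03 at day 1 (adjusted P = 2.16e-15). It had -0.09 at day 2 (adjusted P = 0.168) and was higher again at day 7 (0.34, adjusted P = 1.57e-06). Tcf19, 35.3 kb before Cdsn, fell on all 4 days, with -0.34, -0.71, -0.72 and -0.35 (adjusted P = 0.00759, 2.86e-07, 3.31e-08 and 0.0482). Lpcat2, a lysophospholipid acyltransferase 100.9 kb from Ces1a, rose by 0.81 at day 1 and 1.37 at day 2 (adjusted P = 1.91e-06 and 1.36e-08), on the days when Ces1a was higher. Mmp2, 166.8 kb from Ces1a, rose by 0.49 at day 2 and 0.42 at day 7 (adjusted P = 2.5e-06 and 1.3e-05). At day 7 Ces1a was lower. Emp1, a membrane protein gene 1123 kb before Atf7ip, rose by 0.54 at day 1 and 1.14 at day 2 (adjusted P = 6.22e-07 and 3.38e-12).

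For each of the 9 genes, the genes of most similar pattern were found by Pearson's r of log2(CPM + 0.5) over the 29 samples, which share treatment, day and library. Crocc2 was closest to Pik3r5 (r = 0.975) and Cd33 (0.972), which had C70 effects of 1.45 and 3.19 at day 2 beside its own 4.85. Ptprv was closest to Rnf157 (0.984) and Lrrc32 (0.984), which had 1.93 and 1.87 at day 2. Aqp1 was closest to Lsp1 (0.982) and Col23a1 (0.955), with effects of 3.53 and 3.63 at day 2 beside its own 3.87. The closest genes to Apod were Slc7a2 (0.916) and Msln (0.912), a lower likeness than for the other raised genes. Kif26b matched Sh3pxd2b (0.995) and Psrc1 (0.995), which had 0.49 and 1.66 at day 2 beside its own 1.58. Cdsn matched Cacng7 (0.967) and Apobr (0.965), but neither was far below 0 at day 7, with 0.04 and -0.02 beside -1.04 for Cdsn. Adhfe1 matched 9630013D21Rik (0.993) and Ivd (0.992), an enzyme of leucine breakdown. Ces1a matched Sema7a (0.976) and Mmp13 (0.972), whose day 7 effects of 0.61 and 1.38 had the opposite sign to its own. Atf7ip had the least close matches, Rab12 (0.764) and Cog5 (0.762), which had -1.22 and -0.31 at day 0 beside its own -0.97.

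Markers of other cell types were few. Of 10 macrophage markers 2 were analysed, Cd68 and Cd14, and Cd68 averaged 1.31 ± 0.309 CPM in the vehicle samples of day 0 and 19.1 ± 0.481 (SD) in the C70 samples. Cd14 averaged 7.03 ± 0.302 and 7.2 ± 0.679 CPM in the same samples (log2 fold change 0.03, adjusted P = 0.902 by edgeR). It was higher with C70 at day 1 (0.67, adjusted P = 0.00105) and day 2 (0.49, adjusted P = 0.0186), and had 0.15 at day 7 (adjusted P = 0.486). The sum of both at day 2 ran from 3.07 to 4.14 CPM in vehicle and from 9.02 to 10.1 with C70, and at day 7 the ranges overlapped. Of 10 osteoblast markers 2 were analysed, Runx2 and Spp1, with sums of 71.9 to 77.0 in vehicle and 362 to 370.0 with C70 at day 2, most of it Spp1 (45.1 and 324 CPM on average). At day 0 the order was the other way, with sums of 1350 to 1460 in vehicle and 1120 to 1220 with C70. Endothelial markers were represented by Egfl7 alone, with at most 5.58 CPM in any sample. It was higher with C70 at days 0, 1 and 2, with 0.74, 0.78 and 0.69 (adjusted P = 0.00265, 0.00285 and 0.00821 by edgeR). At day 7 it had -0.55 (adjusted P = 0.0746). The part of these values in the C70 effects of the 9 genes was not tested.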

How the data were processed

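The authors aligned strand-specific RNA-seq reads with STAR 2.7.2a to GRCm38 (Ensembl release 97) and deposited counts per gene for 29 samples. These are whole-number counts for 11959 genes, already filtered by the authors. The counting program and its use of strand are not given in the sources used here, and edgeR 3.26.8 is named in the submitters' processing notes. Libraries held 16320275 to 24037170 counts, which limits genes near 1 CPM.

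All samples were fitted as 8 groups without covariates by edgeR 4.0.16's quasi-likelihood test (R 4.3.3) on the deposited counts, scaled by the trimmed mean of M values, and P values were adjusted by Benjamini-Hochberg over all genes within a comparison. Thresholds were an adjusted P value of 0.05 and a fold change of 1.25. CPM used the scaled library sizes. Tests were two-sided. The 9 genes, the lists and the tests were chosen with earlier results of these data known, and the 9 genes by the C70 contrasts themselves.

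The genes named were the 9 members; for each, the 2 genes with the highest Pearson's r; up to 2 per family list with the largest change on any day among DEGs; up to 6 flanking genes that were DEGs on 2 or more days; Kdm5a, Kdm5b and Kdm5c; and Adipoq and Dlk1 as identity checks (with Col1a1 and Fabp4, whose levels are within the marker sums). Other genes were named after their values were seen, as examples of the marker lists and of the flanking, lipocalin and receptor-type phosphatase lists. Annotation came from GENCODE vM21 (GRCm38) and promoters from RefSeq (GRCm38.p6).

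Alternatives were DESeq2 1.42.0, its size factors, quantile normalization with limma 3.58.1, removal of the 25% of genes lowest in mean CPM, other thresholds, separate fits with and without a replicate block, a pseudocount of 2 CPM in place of 0.5, 1 flanking gene per side, and leaving out each library. The test was tried on simulated data with 200 of 11959 genes changed 2-fold at day 2, where it recovered 200 with 9 false calls. Python 3.11.15, pandas 2.3.3 and matplotlib 3.10.9 were used for tables and plots.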

Additional observations from a re-analysis of the deposited data

Results flagged for a closer look

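Of 45 groups of 4 samples examined for the 9 genes, 4 had a sample far from the other 3 relative to the range of the group, where chance gives about 1 in 20 groups, or 2.25. Apod with C70 at day 1 had 460 CPM in replicate 2, below the others at 525 to 533. Ces1a with C70 at day 2 had 60.5 CPM in replicate 1, above the others at 50.8 to 52.3. In vehicle at day 7 Ces1a had 1.18 CPM in replicate 3, above the others at 0.789 to 0.822. Atf7ip with C70 at day 0 had 75.5 CPM in replicate 2, above the others at 69 to 70.

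For 3 genes, every C70 sample lay on one side of every vehicle sample on 1 day and on the other side on another day, as was the case for 13.4% of all genes. The log2 fold change of Cdsn was 2.99 at day 1 and -1.04 at day 7, a difference of 4.03. That of Adhfe1 was -0.76 at day 0 and 0.29 at day 7, a difference of 1.05. Ces1a had 1.14 at day 1 and -0.97 at day 7, a difference of 2.11. These differences were not tested, since the genes were chosen by their C70 effects.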

How the results depend on the processing

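No value changed direction under any alternative among the results that were past the thresholds. Of the values of single genes for C70 against vehicle, 1249 moved by less than the replicate spread and 11 by more, of which 8 came from quantile normalization. Of those for vehicle over time, 988 kept their side of the thresholds, 9 crossed to pass and 2 crossed to miss. On the adjusted P value alone, the other family genes changed numbered 22, 50 and 35 at days 0, 1 and 7, the flanking genes 9, 14, 15 and 13 at days 0, 1, 2 and 7, and members lower 1 at day 1 and 2 at day 2. With a fold change over 1.5, family genes numbered 3, 15, 25 and 9 at days 0, 1, 2 and 7, flanking genes 4 at day 2 and 2 at day 7, members lower at day 2 0, and members higher in vehicle 1 at day 2 and 1 at day 7. Without the 25% of genes lowest in mean CPM, which also left fewer genes to test, family genes numbered 4 at day 0 and 18 at day 1. Quantile normalization gave 3 members higher at day 7 and 2 on all 4 days. With 1 flanking gene per side, 3 had changed at day 7.

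Leaving out 1 library gave 2 to 5 flanking genes at day 0, 5 to 10 at day 7, 4 to 6 members higher at day 7 and 1 to 2 lower, and 3 to 4 higher on all 4 days. Replicate numbers did not pair the samples (correlations of deviations from -0.205 to 0.214 over 13 pairs). In separate fits with the replicate block, 3 members were higher and 1 lower at day 7, and 2 were higher on all 4 days. Except where stated above for a setting, the cause was not tested. Day 7 values of Crocc2, Ptprv, Kif26b and Ces1a are limited by depth, since they rest on 22 to 87 counts per group.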

Other observations

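Over the 29 samples the 9 genes did not form 1 group. Aqp1 followed Ptprv (Pearson's r = 0.874 of log2(CPM + 0.5)) and Apod (0.863), whereas Apod and Ptprv had r = 0.577. Kif26b followed Ces1a (0.893) and Ptprv (0.870), and was opposite to Adhfe1 (-0.906). Cdsn had r = 0.067 with Ptprv and 0.076 with Adhfe1. These values describe the samples, which share days, treatments and libraries.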
